A study of Saccharomyces cerevisiae with 12 samples.

Results

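The comparison described here set the mRNA of budding yeast that made the helicase Dbp1 against the mRNA of yeast that made its paralog Ded1. It used 4 of the 12 libraries of the series, which were the 2 Dbp1 mRNA libraries and the 2 Ded1 mRNA libraries, chosen by genotype and library type. All strains were SK1, a fast-sporulating laboratory background, grown with aeration in rich YEPD medium at 30 °C, taken in exponential growth at an optical density of 0.6 and given 100 µM cycloheximide for 1 min before harvest. In Dbp1 cells the DED1 regulatory regions drove DBP1, and in Ded1 cells the same regulatory regions drove DED1. Another genotype, 2xDbp1, carried 4 copies of DBP1 behind those regions. Its 2 mRNA libraries entered the estimate of the spread, and ribosome footprints were not used. Whether libraries of 1 genotype came from separate cultures or clones is not given in the sources used here, so every p-value measures the spread between these libraries, which may be technical. The level of each mRNA is given in RPKM, reads per kilobase of gene scaled to library size.

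Ded1 and Dbp1 are DEAD-box RNA helicases that help the small ribosomal subunit to load onto structured mRNA leaders and to scan them. Ded1 is essential in vegetative growth, and extra Dbp1 can take its place. Budding yeast answers heat, oxidants, glucose exhaustion and slowed growth with a common programme in which the transcription factors Msn2 and Msn4 switch on genes for storage carbohydrate, small heat shock proteins, antioxidants and alternative enzymes of sugar metabolism. In the same programme, genes for ribosome assembly are turned down. Sulfur amino acid synthesis follows a separate circuit, in which Met4 with Cbf1, Met31 and Met32 drives the genes for sulfate reduction and methionine synthesis.

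The helicase genes matched the labels. DED1 mRNA was at 2.74 and 2.81 RPKM in the Dbp1 libraries, against 63.0 and 61.5 RPKM in the Ded1 libraries. DBP1 mRNA was at 100.4 and 104.5 RPKM in the Dbp1 libraries, against 5.12 and 4.26 RPKM in the Ded1 libraries. Each gene was therefore at a low level where the other was driven, and the replicates lay close together. The log2 fold changes, Dbp1 over Ded1, were -4.07 for DED1 (SE 0.158, limma, adjusted p = 5.43e-05) and 4.19 for DBP1 (SE 0.105, adjusted p = 4.455e-06). Both passed whichever library was left out. The low values are uncertain, because paralogs can share reads, and the DED1 values in the Dbp1 libraries correspond to 29 and 39 reads. Of the genes within 8 systematic positions of DED1 none passed, and of those around DBP1 only RNY1 did (0.67, adjusted p = 0.0336).

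Most mRNAs had small log2 fold changes between Dbp1 and Ded1 cells. Of 5198 genes with a mean of at least 5 RPKM, 79 passed a Benjamini-Hochberg adjusted p of 0.05 (limma), which is 1.52% of those tested. There were 67 genes higher in Dbp1, or 1.29%, and 12 lower, or 0.231%. Setting DED1 and DBP1 aside leaves 66 higher genes, 28 of them by 2-fold or more, and 11 lower genes, 5 of them by 2-fold or more. The median log2 fold change over all genes was 0.04, with -0.32 at the 5th percentile and 0.53 at the 95th percentile. Before adjustment, 1016 of the 5198 genes had a limma p under 0.05. With 2 libraries of each genotype, genes that did not pass may also differ. All 66 higher genes had both Dbp1 libraries above both Ded1 libraries, as did 30.6% of all genes tested, and all 11 lower genes had both below, as did 21.0%. The higher genes were of moderate level, with a median of 43.6 RPKM over the 6 mRNA libraries against 59.7 RPKM for all genes.

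**Figure D1:**
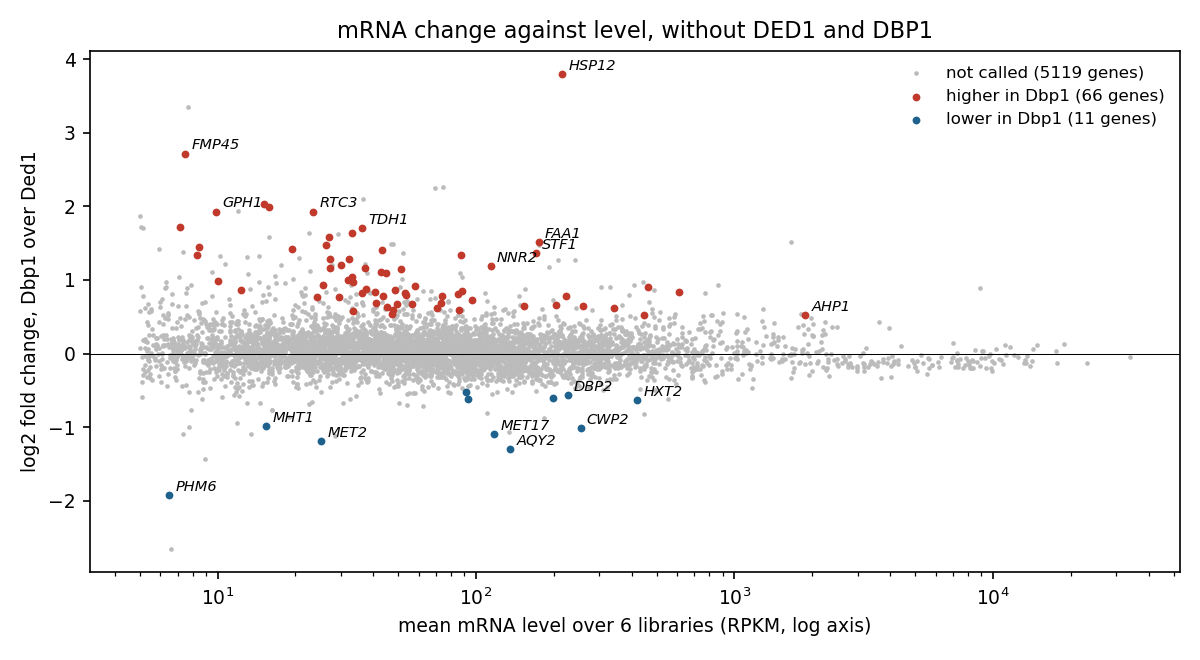
Each point is 1 gene, with its mean level over the 6 mRNA libraries on the horizontal axis (RPKM, log scale) and its log2 fold change, Dbp1 over Ded1, on the vertical axis. The 66 genes that passed as higher in Dbp1 are red, the 11 that passed as lower are blue, DED1 and DBP1 are not drawn, and most of the other points lie close to 0.

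How many genes passed depended strongly on single libraries. No called gene changed direction under any alternative tried, but the count was 2 without Ded1 replicate 1 (DED1 and DBP1), 18 without Ded1 replicate 2, 11 without the first Dbp1 replicate and 204 without the second. Without either 2xDbp1 library it was 8, as it was with the Dbp1 and Ded1 libraries fitted alone. The calls that held in 5 of the 6 fits with a library left out were those of RTC3, PGM2, GAD1 and NNR2, which missed without Ded1 replicate 1. The Dbp1 libraries also differed from each other. Dbp1 replicate 1 was above Dbp1 replicate 2 for 55 of the 66 higher genes and for 57.3% of all genes, and it was the shallowest library, with about 5.998 M reads as inferred from the steps between values, against 7.845 M in Dbp1 replicate 2 and 7.623 and 8.497 M in the Ded1 libraries. On the first principal component, which held 46.7% of the variance, the Dbp1 libraries lay at 15.7 and 3.27, and the Ded1 libraries at -13.8 and -11.8. The part of depth or of Dbp1 replicate 1 in the changes was not tested beyond the values without that library.

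Genes of storage carbohydrate metabolism were among those that rose. Yeast stores glucose as glycogen and trehalose when growth slows. GPH1, glycogen phosphorylase, was at 23.0 and 13.1 RPKM in Dbp1, against 4.41 and 3.33 RPKM in Ded1. GSY2, the main glycogen synthase, was at 42.2 and 37.4 RPKM in Dbp1, against 15.04 and 16.3 RPKM in Ded1. PGM2, the main phosphoglucomutase, was at 31.4 and 27.6 RPKM in Dbp1, against 10.6 and 10.3 RPKM in Ded1. Enzymes that build and that break down glycogen were thus higher together, and for GSY2 and PGM2 the replicates lay much closer to each other than the genotypes did. The log2 fold changes were 1.93 for GPH1 (SE 0.267, limma, adjusted p = 0.0285), 1.29 for GSY2 (SE 0.135, adjusted p = 0.0118) and 1.41 for PGM2 (SE 0.126, adjusted p = 0.00728). In bulk RNA of a culture, a change in RNA per cell and a change in the share of cells that express a gene cannot be told apart. Of the 18 measured genes of trehalose and glycogen metabolism these 3 rose, 0 fell and 15 did not pass. The list's median log2 fold change was 0.40, beside 0.04 over all genes. Above 0 were 16 of its members and 57.0% of all genes, and 1.29% of all genes passed as higher. The trehalose synthase subunit gene TPS1 had 75.3 and 82.2 RPKM in Dbp1, against 59.3 and 59.5 RPKM in Ded1 (0.40, adjusted p = 0.137), and TSL1, a regulatory subunit of the same enzyme, had a log2 fold change of 1.04 (adjusted p = 0.0784). PGM1, the minor phosphoglucomutase, was at 58.8 and 68.3 RPKM in Dbp1, against 74.8 and 75.1 RPKM in Ded1 (-0.24, adjusted p = 0.274). Of the 3 called genes, 3 passed without Dbp1 replicate 2, 2 without either 2xDbp1 library, 1 each without Ded1 replicate 2 and Dbp1 replicate 1, and 0 without Ded1 replicate 1.

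Small stress proteins held the largest increase. HSP12, a small membrane-associated heat shock protein, was at 674 and 344 RPKM in Dbp1, against 17.5 and 64.5 RPKM in Ded1. The lowest Dbp1 library was above the highest Ded1 library, but the Ded1 replicates differed from each other by a larger ratio than the Dbp1 replicates did. Its log2 fold change was 3.79 (SE 0.553, limma, adjusted p = 0.0336), and it was 2.88 without Ded1 replicate 1 (adjusted p = 0.0948) and 4.71 without Ded1 replicate 2 (adjusted p = 0.0168). RTC3, a small stress-induced protein, was at 41.1 and 35.1 RPKM in Dbp1, against 9.51 and 8.95 RPKM in Ded1. It had tight replicates and a log2 fold change of 1.93 (SE 0.146, adjusted p = 0.0041). RTN2, the stress-induced reticulon that shapes the endoplasmic reticulum, was at 59.3 and 36.5 RPKM in Dbp1, against 19.5 and 19.6 RPKM in Ded1 (1.21, adjusted p = 0.0444). Its constitutive paralog RTN1 was at 643.8 and 530.0 RPKM in Dbp1, against 582 and 539.9 RPKM in Ded1 (0.06, adjusted p = 0.819), with the libraries overlapping. HSP42, a small heat shock protein that gathers misfolded proteins, was at 34.7 and 49.1 RPKM in Dbp1, against 17.4 and 18.2 RPKM in Ded1 (1.17, adjusted p = 0.0285). MSC1 had a log2 fold change of 1.40 (adjusted p = 0.0197).

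Of the 16 measured small stress-induced genes these 5 rose, 0 fell and 11 did not pass, and the median log2 fold change was 1.30. Over all genes tested, 1.29% passed as higher and 0.231% as lower, and the median was 0.04. Several members of the list with large differences did not pass, and in each of them Dbp1 replicate 1 stood far above Dbp1 replicate 2. DDR2 was at 34.4 and 5.06 RPKM in Dbp1, against 1.04 and 0 RPKM in Ded1 (adjusted p = 0.104). YRO2 was at 198 and 66.4 RPKM in Dbp1, against 24.3 and 22.2 RPKM in Ded1 (adjusted p = 0.0605). YGP1, a secreted glycoprotein of starved cells, was at 201 and 58.1 RPKM in Dbp1, against 18.7 and 25.9 RPKM in Ded1 (adjusted p = 0.0851). In each of these 3 genes both Dbp1 libraries were above both Ded1 libraries, as they were for 30.6% of all genes tested. HSP26, a small heat shock protein like HSP42, was at 6.27 and 6.10 RPKM in Dbp1, against 7.85 and 6.64 RPKM in Ded1 (-0.19, adjusted p = 0.669). Among the larger chaperones, 1 of 24 measured members rose, the mitochondrial disaggregase gene HSP78, with a median of 0.04 over the list (-0.03 under quantile normalization, -0.09 without Dbp1 replicate 2 and -0.03 without Ded1 replicate 2). Of the 5 called small stress genes, 5 passed without Dbp1 replicate 2, 2 each without Ded1 replicate 2 and Dbp1 replicate 1, 1 without either 2xDbp1 library and 0 without Ded1 replicate 1.

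**Figure D2:**
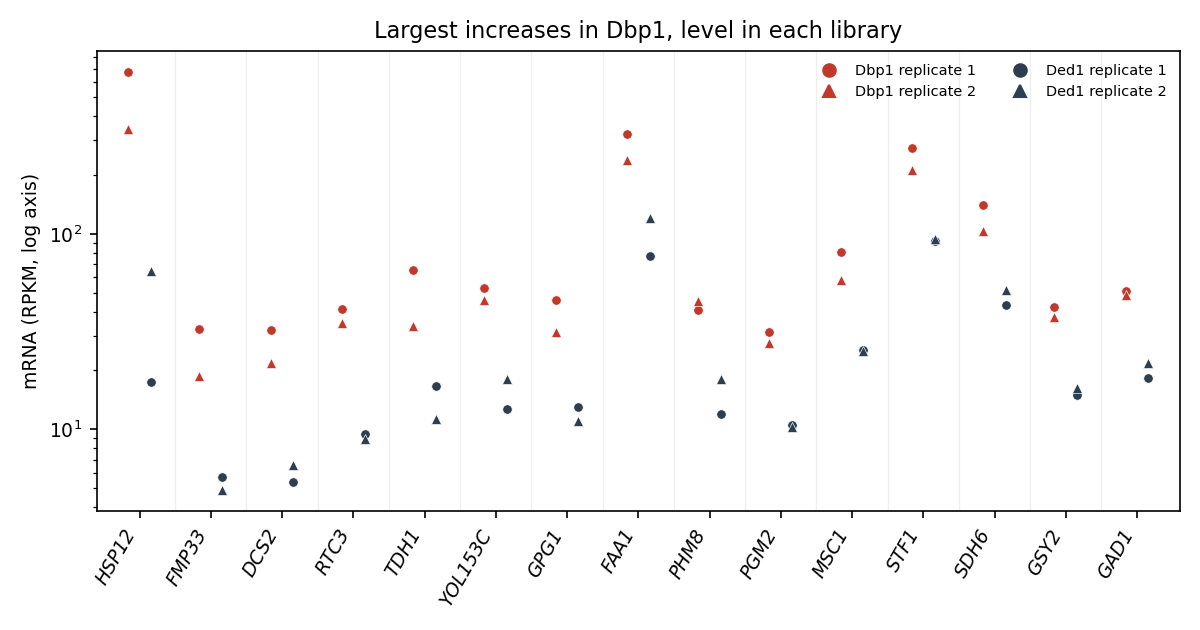
The 15 largest increases among called genes with a mean of at least 10 RPKM, with the level in each library in RPKM on a log axis (circles replicate 1, triangles replicate 2, Dbp1 in red to the left of Ded1 in dark blue). The genes were chosen for having both Dbp1 libraries above both Ded1 libraries, as did 30.6% of all genes tested. HSP12 has the widest gap between the Ded1 replicates, 17.5 and 64.5 RPKM.

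Over the 39 measured general stress genes linked to Msn2 and Msn4, 17 rose, 0 fell and 22 did not pass. Their median log2 fold change was 0.93, with 38 members above 0. Of all genes tested, 1.29% passed as higher and 57.0% were above 0. The list was chosen with earlier results of these data known, so its direction is no independent evidence. Its mean on the log2(RPKM + 1) scale was 5.60 and 5.32 in the Dbp1 libraries, against 4.36 and 4.42 in the Ded1 libraries. The genotypes differed by more than the replicates, and the mean change was 1.07, or 0.93 without Dbp1 replicate 1. Of the 17 calls, 14 passed without Dbp1 replicate 2, 6 without Ded1 replicate 2, 5 without Dbp1 replicate 1, 4 without either 2xDbp1 library and 0 without Ded1 replicate 1.

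Among sugar kinases, glycolytic enzymes and their homologs 6 genes rose. Yeast carries several copies of these enzymes, of which some serve fast growth on glucose and others are induced when glucose runs low. TDH1, a glyceraldehyde-3-phosphate dehydrogenase, was at 65.5 and 33.8 RPKM in Dbp1, against 16.6 and 11.3 RPKM in Ded1. ENO1, an enolase, was at 808 and 707 RPKM in Dbp1, against 469 and 379 RPKM in Ded1. GLK1, glucokinase, was at 49.5 and 40.5 RPKM in Dbp1, against 22.9 and 19.6 RPKM in Ded1. All were higher in every Dbp1 library than in any Ded1 library, as were 30.6% of all genes tested. TDH1 was the least even of these genes between its replicates. The log2 fold changes, Dbp1 over Ded1, were 1.71 for TDH1 (SE 0.296, limma, adjusted p = 0.0447), 0.84 for ENO1 (SE 0.144, adjusted p = 0.0447) and 1.05 for GLK1 (SE 0.131, adjusted p = 0.0197). HXK1, hexokinase 1, was at 57.2 and 67.2 RPKM in Dbp1, against 40.5 and 36.8 RPKM in Ded1 (0.67, adjusted p = 0.0493). EMI2, a paralog of GLK1, rose by 0.59 on the log2 scale and GPM2, a phosphoglycerate mutase homolog, by 1.10. Abundant isozymes of the same steps, named here after their values were seen, did not pass. HXK2, the main hexokinase on glucose, was at 486 and 525 RPKM in Dbp1, against 586 and 525 RPKM in Ded1 (-0.14, adjusted p = 0.494). ENO2 was at 3887 and 4288 RPKM in Dbp1, against 4539 and 3849 RPKM in Ded1 (-0.03, adjusted p = 0.896). TDH3 was at 10972 and 12449 RPKM in Dbp1, against 10795 and 10875 RPKM in Ded1 (0.11, adjusted p = 0.512). TDH1, TDH2 and TDH3, and likewise ENO1 and ENO2, are nearly identical in sequence, so the split of their reads is uncertain, and GLK1 overlaps another annotated reading frame, YCL042W. Of the 17 measured glycolytic enzymes, a list without EMI2 and GPM2, 4 rose, 0 fell and 13 did not pass, with a median of 0.12. Over all genes tested, 1.29% passed as higher and the median was 0.04. Of the 6 called genes of this group, 4 passed without Dbp1 replicate 2 and 0 without any of the other 5 libraries.

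The higher genes included 11 nuclear genes for mitochondrial proteins, grouped after their values were seen, with log2 fold changes between 0.53 and 2.03. How large a share of all genes tested encodes mitochondrial proteins was not counted, so the number 11 shows no excess of them. The 11 genes are not a full count of mitochondrial calls. MCO32, MIN6 and MRX18, also named as mitochondrial proteins, rose by 0.77, 0.73 and 0.81 on the log2 scale and stand among the other higher genes. STF1, a paralog of the ATP synthase inhibitor INH1, was at 275 and 212 RPKM in Dbp1, against 92.0 and 93.7 RPKM in Ded1. SDH6, an assembly factor of succinate dehydrogenase, was at 140.8 and 103 RPKM in Dbp1, against 43.0 and 51.6 RPKM in Ded1. OM45, an outer membrane protein, was at 80.7 and 63.4 RPKM in Dbp1, against 29.8 and 33.8 RPKM in Ded1. The Dbp1 libraries stood well above both Ded1 libraries in each case, and replicate 1 was the higher of the Dbp1 libraries. The log2 fold changes were 1.37 for STF1 (SE 0.13, limma, adjusted p = 0.0085), 1.34 for SDH6 (SE 0.181, adjusted p = 0.0257) and 1.15 for OM45 (SE 0.133, adjusted p = 0.0174). MDH1, the malate dehydrogenase of the tricarboxylic acid cycle, was at 561 and 492 RPKM in Dbp1, against 365 and 364 RPKM in Ded1 (0.53, adjusted p = 0.0493). HSP78 was at 115 and 139 RPKM in Dbp1, against 64.1 and 76.4 RPKM in Ded1 (0.85, adjusted p = 0.0447), with Dbp1 replicate 2 the higher, unlike the others of the group. FMP33 rose by 2.03 on the log2 scale, AIM17 by 0.97, MPM1 by 0.83, the mitochondrial aldehyde dehydrogenase gene ALD4 by 0.78, MCO10 by 0.67 and CBP4, an assembly factor of the cytochrome bc1 complex, by 0.59. Of these 11 calls, 10 passed without the second Dbp1 replicate, 2 without the first and 0 without any of the other 4 libraries.

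The wider mitochondrial lists had small differences, mostly in 1 direction. For comparison, 1.29% of all genes tested passed as higher and 57.0% were above 0. Of the 19 measured genes of the tricarboxylic acid cycle 1 rose, 0 fell and 18 did not pass, and all 19 had a log2 fold change above 0, with a median of 0.51. Succinate dehydrogenase subunits, which link the cycle to the respiratory chain, are examples. SDH2 was at 514 and 322 RPKM in Dbp1, against 208 and 228 RPKM in Ded1 (0.90, adjusted p = 0.0839), and SDH4 was at 229 and 157 RPKM in Dbp1, against 103 and 103 RPKM in Ded1 (0.88, adjusted p = 0.0593). The mean of the list on the log2(RPKM + 1) scale was 8.24 and 7.69 in Dbp1, against 7.41 and 7.43 in Ded1, and its mean change was 0.55, or 0.27 without Dbp1 replicate 1. Dbp1 replicate 1 thus carried much of that difference. Of 19 respiratory complex III and IV genes 0 passed and all 19 were above 0, with a median of 0.39. CYC7, the hypoxic isoform of cytochrome c, was at 278 and 245 RPKM in Dbp1, against 69.3 and 127 RPKM in Ded1 (1.47, adjusted p = 0.0737). Of 17 ATP synthase genes and inhibitors 1 rose, 0 fell and all 17 were above 0, with a median of 0.36, and their mean change was 0.44, or 0.25 without Dbp1 replicate 1. Of 67 mitochondrial ribosomal protein genes 0 passed and 64 were above 0, with a median of 0.16, and their mean change was 0.17, or 0.10 without Dbp1 replicate 1. Of the 7 measured genes of gluconeogenesis and the glyoxylate cycle 0 passed, with a median of 0.79 and a mean change of 0.86, or 0.39 without Dbp1 replicate 1.

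Enzymes that act on oxidants, aldehydes and other reactive metabolites rose as single genes, and GAD1 and SOL4, of other pathways, were grouped with them. CTT1, the cytosolic catalase, was at 16.6 and 10.8 RPKM in Dbp1, against 4.83 and 3.76 RPKM in Ded1 (1.45, SE 0.241, limma, adjusted p = 0.0432). GAD1, glutamate decarboxylase, was at 51.1 and 48.9 RPKM in Dbp1, against 18.2 and 21.9 RPKM in Ded1 (1.28, SE 0.116, adjusted p = 0.00728). NNR2, which repairs damaged nicotinamide cofactors, was at 176 and 158 RPKM in Dbp1, against 73.0 and 72.6 RPKM in Ded1 (1.19, SE 0.0938, adjusted p = 0.0042). GAD1 and NNR2 had replicates within a narrow range in both genotypes. GRE3, an aldose reductase, was at 82.3 and 69.5 RPKM in Dbp1, against 35.2 and 44.2 RPKM in Ded1 (0.92, adjusted p = 0.0351). AHP1, a thioredoxin-dependent peroxidase, was the most abundant of all higher mRNAs, at 2094 and 2326 RPKM in Dbp1, against 1484 and 1603 RPKM in Ded1 (0.52, adjusted p = 0.0447). SOL4, a 6-phosphogluconolactonase, rose by 1.34 on the log2 scale, the aldo-keto reductase gene GCY1 by 1.11, the glutathione transferase gene GTT1 by 0.62 and the glyoxylate reductase gene GOR1 by 0.58. Of 27 measured antioxidant enzymes 3 rose, 0 fell and 24 did not pass, with a median of 0.14. Of 11 aldehyde dehydrogenases and carbonyl reductases 3 rose and 0 fell, with a median of 0.37. Over all genes tested, 1.29% passed as higher and 0.231% as lower, and the median was 0.04. MXR1, a methionine sulfoxide reductase, was at 114.5 and 164 RPKM in Dbp1, against 236 and 269 RPKM in Ded1 (-0.87, adjusted p = 0.0972), the lowest log2 fold change of the antioxidant list. Of the 9 called genes of this group, 7 passed without Dbp1 replicate 2, 3 without Ded1 replicate 2, 2 without Dbp1 replicate 1, 2 without either 2xDbp1 library and 0 without Ded1 replicate 1.

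Genes of the cell membrane, lipids and the vacuole made up a further 8 calls, and the share of such genes among all genes tested was not counted. FAA1, a long-chain acyl-CoA synthetase, was at 323 and 238 RPKM in Dbp1, against 77.3 and 121 RPKM in Ded1 (1.51, SE 0.261, limma, adjusted p = 0.0447). PEP4, the vacuolar proteinase that activates other vacuolar hydrolases, was at 294 and 265 RPKM in Dbp1, against 159 and 166 RPKM in Ded1 (0.78, SE 0.116, adjusted p = 0.0336). FMP45, a relative of the plasma membrane protein Sur7, was at 20.5 and 13.0 RPKM in Dbp1, against 1.21 and 2.16 RPKM in Ded1 (2.72, adjusted p = 0.0141). The Ded1 values of FMP45 rest on 8 and 16 reads, so its fold change is less precise than those of FAA1 and PEP4. RNY1, a vacuolar ribonuclease, rose by 0.67 on the log2 scale, the vacuolar carboxypeptidase gene ATG42 by 0.64, PRY1, a secreted sterol-binding protein, by 0.86, SCS22, a tether of the endoplasmic reticulum, by 0.84, and GPG1 by 1.58. All 8 were higher in Dbp1 replicate 1 than in Dbp1 replicate 2. Of 12 measured genes for vacuolar proteases, their inhibitors and autophagy 1 rose, 0 fell and 11 did not pass, with a median of 0.56. Above 0 were 11 of them and 57.0% of all genes, and 1.29% of all genes passed as higher. All 8 calls of the group passed without Dbp1 replicate 2, 1 passed without Ded1 replicate 2 and 0 passed without any of the other 4 libraries.

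The other 24 higher genes had log2 fold changes between 0.54 and 1.99. DCS2, a stress-induced regulator of the scavenger decapping enzyme Dcs1, was at 32.3 and 21.9 RPKM in Dbp1, against 5.37 and 6.58 RPKM in Ded1 (1.99, adjusted p = 0.0104). PHM8, a nucleotide phosphatase, was at 40.7 and 45.4 RPKM in Dbp1, against 12.02 and 18.2 RPKM in Ded1 (1.48, adjusted p = 0.0197). Both stood clear of the Ded1 libraries. IRC7, which splits cysteine and related thiols, was at 423 and 431 RPKM in Dbp1, against 281 and 276 RPKM in Ded1 (0.61, adjusted p = 0.0452). GSP2, the minor Ran GTPase, was at 66.6 and 40.6 RPKM in Dbp1, against 23.1 and 22.2 RPKM in Ded1 (1.17, adjusted p = 0.0484). Of the 24 calls, 19 passed without Dbp1 replicate 2, 3 without Ded1 replicate 2, 1 without Dbp1 replicate 1 and 0 without any of the other 3 libraries. The grouping of called genes by role was made after their values were seen.

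Sulfur amino acid genes were 4 of the 11 genes that fell. MET2, homoserine acetyltransferase, was at 16.8 and 16.4 RPKM in Dbp1, against 39.3 and 38.7 RPKM in Ded1. MET17, which joins sulfide to the product of MET2 to form homocysteine, was at 76.6 and 94.7 RPKM in Dbp1, against 157 and 212 RPKM in Ded1. MHT1, a methyltransferase that makes methionine from S-methylmethionine, was at 9.66 and 11.4 RPKM in Dbp1, against 22.1 and 21.6 RPKM in Ded1. Mean Dbp1 levels were 0.425 times the Ded1 level for MET2, 0.464 times for MET17 and 0.483 times for MHT1, and MET2 and MHT1 had little spread between replicates. MET14, the adenylylsulfate kinase of sulfate activation, was at 73.2 and 78.5 RPKM in Dbp1, against 115 and 119 RPKM in Ded1. The log2 fold changes were -1.19 for MET2 (SE 0.12, limma, adjusted p = 0.0104), -1.09 for MET17 (SE 0.163, adjusted p = 0.0336), -0.99 for MHT1 (SE 0.147, adjusted p = 0.0336) and -0.62 for MET14 (SE 0.0951, adjusted p = 0.0351). MET17 overlaps the annotated frame YLR302C. All 4 passed without Dbp1 replicate 2, MET2 alone passed without either 2xDbp1 library, and 0 passed without Dbp1 replicate 1, Ded1 replicate 1 or Ded1 replicate 2.

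No other measured member of the 3 sulfur lists passed, while IRC7, on none of them, rose by 0.61 on the log2 scale. Among all genes tested, 1.29% passed as higher, 0.231% passed as lower and 57.0% were above 0, with a median of 0.04. Of the 17 measured genes of the methionine and S-adenosylmethionine cycle 0 rose, 3 fell and 14 did not pass, with a median of -0.21. Of 8 measured genes of sulfate uptake and reduction 0 rose, 1 fell and 7 did not pass, with a median of -0.34. Of the 12 genes of transsulfuration and the Met4 regulators 0 passed, with a median of -0.12 and a mean change of -0.13, which was -0.06 without Ded1 replicate 2 and -0.20 without Ded1 replicate 1. These 3 lists had, in that order, 4, 1 and 4 members with a log2 fold change above 0. The highest members were HOM3 (0.31), MET8 (0.23) and JLP1 (0.68). MMP1, the S-methylmethionine permease, was at 4.14 and 5.57 RPKM in Dbp1, against 11.2 and 11.5 RPKM in Ded1 (-1.09, adjusted p = 0.0564). MET5, a sulfite reductase subunit, was at 10.5 and 11.1 RPKM in Dbp1, against 16.0 and 19.7 RPKM in Ded1 (-0.67, adjusted p = 0.0851). MET6, methionine synthase, was at 44.4 and 64.02 RPKM in Dbp1, against 79.3 and 98.0 RPKM in Ded1 (-0.71, adjusted p = 0.11). For these 3 genes too both Dbp1 libraries lay below both Ded1 libraries, as for 21.0% of all genes tested. In the methionine, sulfate and transsulfuration lists 10, 4 and 5 members lay below in this way. In the same order 2, 0 and 3 members had both Dbp1 libraries above both Ded1 libraries, as did 30.6% of all genes. MET3, ATP sulfurylase, which acts just before MET14, was at 31.3 and 21.6 RPKM in Dbp1, against 27.6 and 26.3 RPKM in Ded1 (-0.05), and the libraries overlapped. MET4, the activator, had a log2 fold change of 0.12, CBF1 had -0.07, MET31 -0.40 and MET32 -0.46 (adjusted p = 0.0965 for MET32, the lowest of the 4).

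**Figure D3:**
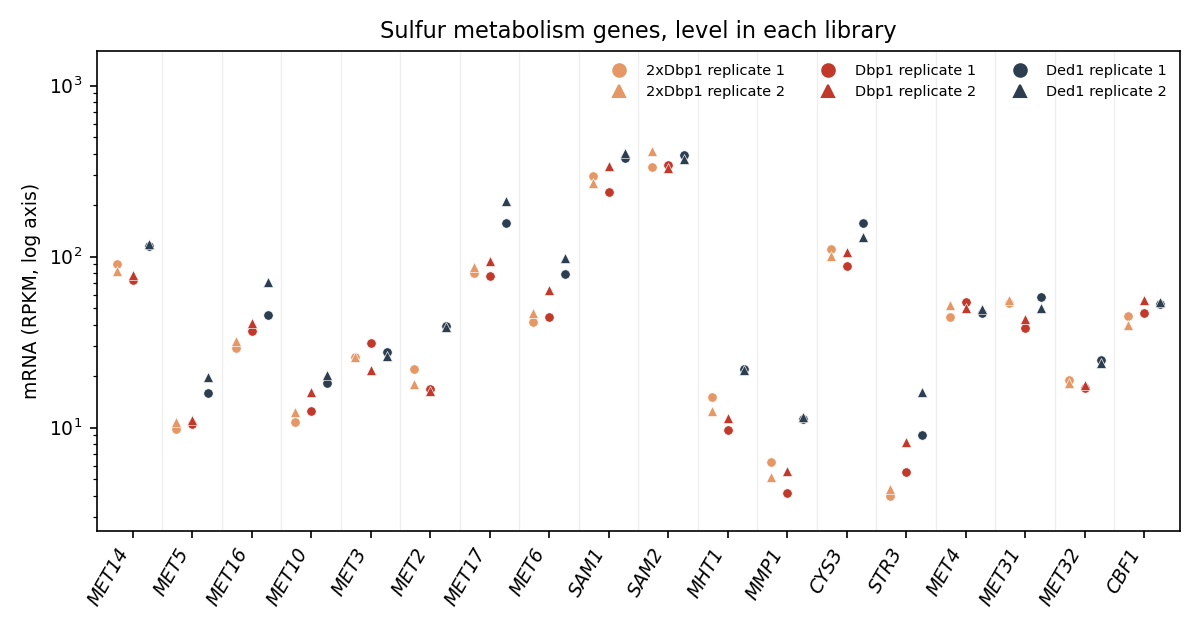
Levels of sulfur metabolism genes in each library in RPKM on a log axis (circles replicate 1, triangles replicate 2), with 2xDbp1 in light orange, Dbp1 in red and Ded1 in dark blue from left to right. MET2, MET17, MHT1 and MET14 passed as lower in Dbp1, and for MET3, SAM2, MET4 and CBF1 the differences are small.

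The remaining lower genes were of several kinds. AQY2, a water channel, was at 77.3 and 66.4 RPKM in Dbp1, against 209 and 150.1 RPKM in Ded1 (-1.29, SE 0.203, limma, adjusted p = 0.0351). It overlaps the frame YLL053C, which was at 87.8 and 65.8 RPKM in Dbp1, against 193 and 134 RPKM in Ded1 (-1.07, adjusted p = 0.0947). CWP2, an abundant cell wall mannoprotein, was at 161 and 157 RPKM in Dbp1, against 378 and 275 RPKM in Ded1 (-1.02, SE 0.165, adjusted p = 0.0405). For both genes Ded1 replicate 1 was the highest library and the Dbp1 libraries were close together. HXT2, a high-affinity glucose transporter, was at 300.1 and 336 RPKM in Dbp1, against 518 and 471 RPKM in Ded1 (-0.64, adjusted p = 0.0351). AAH1, adenine deaminase, was at 151 and 161 RPKM in Dbp1, against 242 and 234 RPKM in Ded1 (-0.61, adjusted p = 0.0493). DBP2, a DEAD-box helicase of nuclear RNA, was at 184 and 178 RPKM in Dbp1, against 274 and 264 RPKM in Ded1 (-0.57, adjusted p = 0.0351). These 3 genes had narrow ranges in both genotypes, with both Dbp1 libraries below both Ded1 libraries, as for 21.0% of all genes tested. UTP30, which acts in ribosome assembly, had a log2 fold change of -0.53 (adjusted p = 0.0484). PHM6, a gene of the phosphate regulon, was at 1.31 and 2.00 RPKM in Dbp1, against 10.3 and 7.85 RPKM in Ded1 (-1.93, adjusted p = 0.0493). That is 6 reads in the Dbp1 libraries against 37 in the Ded1 libraries, a depth-corrected ratio of 0.189 with an exact 95% interval for counting error of 0.0651 to 0.451. Of 14 measured phosphate regulon genes 1 rose (PHM8) and 1 fell, with a median of -0.05 (0.23 without Dbp1 replicate 2 and 0.13 without Ded1 replicate 1). Over all genes tested, 1.29% passed as higher and 0.231% as lower. Of the 7 calls in this group, 3 passed without Dbp1 replicate 2, 1 without Ded1 replicate 2 and 0 without any of the other 4 libraries.

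Ribosome assembly genes had small negative log2 fold changes, of which 1 passed. Of 42 measured genes of the small-subunit processome, which cuts and folds the precursor of the small ribosomal RNA, 0 rose, 1 fell (UTP30) and 41 did not pass, and none of the 42 had a log2 fold change above 0. Their median was -0.26, whereas 57.0% of all genes were above 0 and 0.231% passed as lower. Of 50 genes for 60S assembly factors 0 passed and none was above 0, with a median of -0.26 and a range of -0.44 to -0.06. NMD3, the export adaptor of the large subunit, was at 257 and 264 RPKM in Dbp1, against 356 and 343 RPKM in Ded1 (-0.42, adjusted p = 0.0851). Of 20 RNA polymerase I and III genes 0 passed and none was above 0, with a median of -0.26. The means of these lists barely differed between the Dbp1 replicates or between the Ded1 replicates. The processome list stood at 6.60 and 6.61 on the log2(RPKM + 1) scale in Dbp1, against 6.89 and 6.86 in Ded1, and the 60S assembly list at 7.12 and 7.14 in Dbp1, against 7.38 and 7.39 in Ded1. The 2xDbp1 replicates lay further apart, at 6.75 and 6.62 for the processome list and 7.30 and 7.16 for the 60S assembly list. Without Dbp1 replicate 1 the mean changes of the processome and 60S assembly lists, Dbp1 over Ded1, were -0.26 and -0.25. Large-subunit ribosomal protein genes, of which 0 of 75 passed and 5 were above 0, had a median of -0.13, and small-subunit ones, of which 0 of 52 passed and 2 were above 0, had a median of -0.10. Paralogous ribosomal protein genes share reads, so single members are uncertain.

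**Figure D4:**
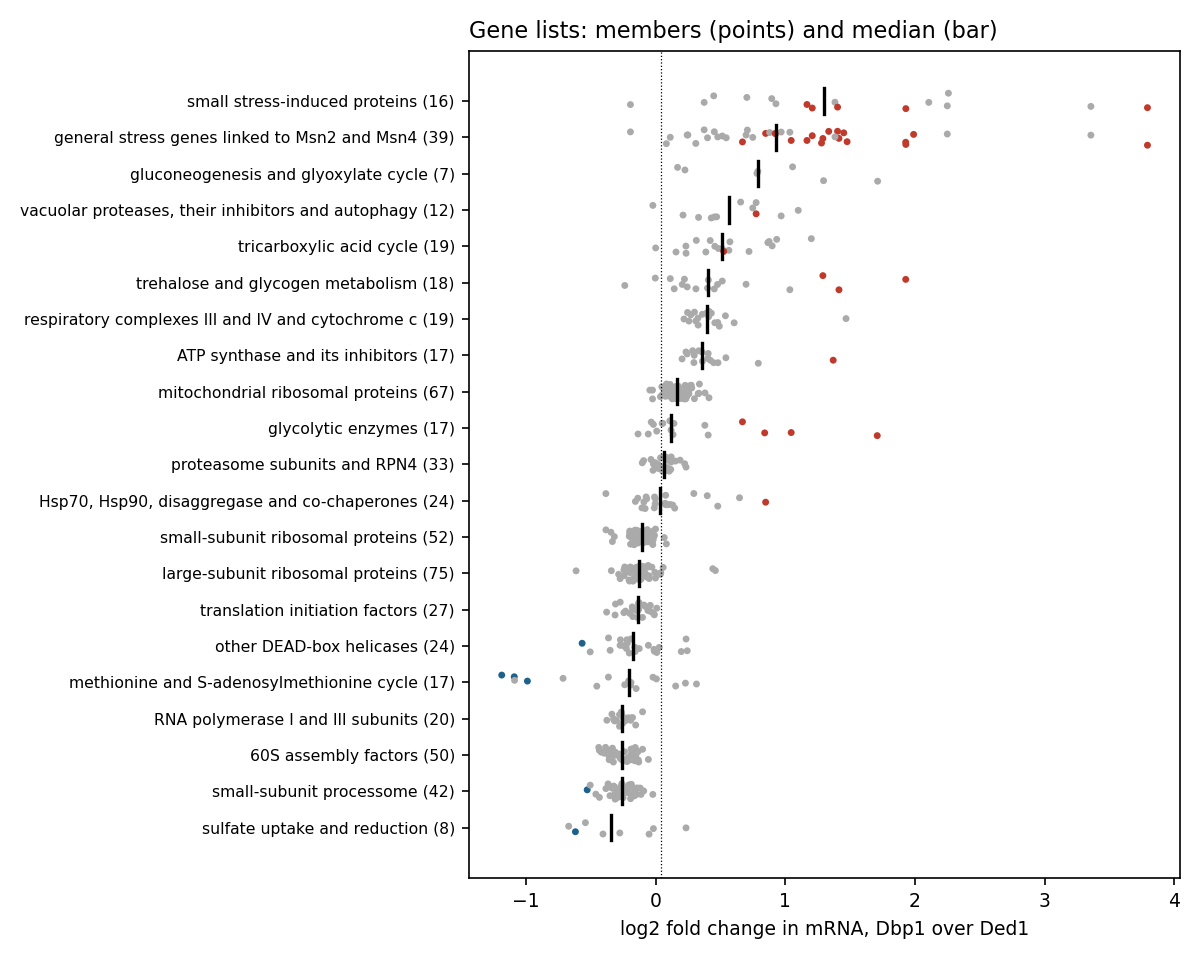
Each point is a measured member of a gene list, at its log2 fold change in mRNA, Dbp1 over Ded1, in red where it passed as higher, blue where it passed as lower and grey otherwise, and the black bar is the list's median. The dotted line is the median of all 5198 genes, 0.04, and the numbers in brackets are measured members.

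Among the translation factors that work beside the helicases, none of 27 initiation factor genes passed. Their median was -0.14 with 1 member above 0, whereas 57.0% of all genes were above 0. None of 15 elongation and termination factor genes and none of 18 aminoacyl-tRNA synthetase genes passed, with medians of -0.11 and -0.13. The mean change of the elongation and termination factors was -0.11, or -0.07 without Ded1 replicate 1. Among 24 other DEAD-box helicase genes 1 fell (DBP2), 0 rose and 23 did not pass, with a median of -0.18. Over all genes tested, 0.231% passed as lower. DBP8, a helicase of ribosome assembly, was at 73.9 and 81.3 RPKM in Dbp1, against 109 and 112 RPKM in Ded1 (-0.50, limma, adjusted p = 0.0517). TIF1 was at 157 and 150.1 RPKM in Dbp1, against 155 and 151 RPKM in Ded1 (0.01, adjusted p = 0.971). TIF1 and TIF2 encode the same helicase, eIF4A, with which Ded1 works, and reads cannot be assigned between them with certainty.

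**Figure D5:**
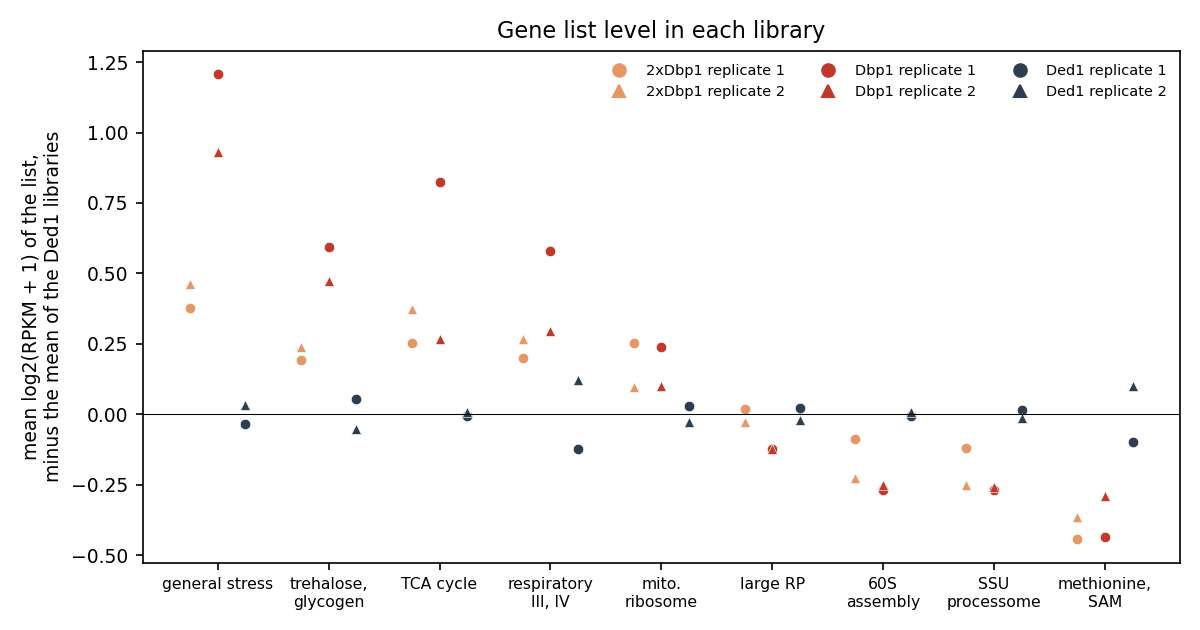
For selected gene lists, the mean log2(RPKM + 1) of the list in each library minus the mean of the Ded1 libraries (circles replicate 1, triangles replicate 2), with 2xDbp1 in light orange, Dbp1 in red and Ded1 in dark blue from left to right. The Dbp1 libraries lie apart from each other for the tricarboxylic acid cycle and almost on each other for ribosome assembly. The 2xDbp1 libraries lie below both Dbp1 libraries for the general stress genes.

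Of 20 measured genes on the list of nutrient and stress signalling 0 passed, with a median of 0.18. MSN2 was at 12.5 and 13.1 RPKM in Dbp1, against 13.2 and 11.2 RPKM in Ded1 (0.07, adjusted p = 0.831), and MSN4 at 13.2 and 14.1 RPKM in Dbp1, against 8.30 and 11.7 RPKM in Ded1 (0.43, adjusted p = 0.356). TPK2, a catalytic subunit of protein kinase A, which holds Msn2 and Msn4 out of the nucleus, was at 66.3 and 71.3 RPKM in Dbp1, against 48.0 and 47.7 RPKM in Ded1 (0.52, limma, adjusted p = 0.0606). The mRNA levels of the kinase thus lay apart between genotypes with narrow ranges, but did not pass over all genes. Both Dbp1 libraries lay above both Ded1 libraries for 30.6% of all genes tested. GPP2, a glycerol phosphatase induced by osmotic stress, was at 189 and 168 RPKM in Dbp1, against 96.7 and 109 RPKM in Ded1 (0.79, adjusted p = 0.0564), and 0 of the 10 genes of ethanol and glycerol synthesis passed. GCN4, the activator of amino acid synthesis, whose translation is set by upstream open reading frames, was at 2224 and 1927 RPKM in Dbp1, against 1339 and 1519 RPKM in Ded1 (0.54, adjusted p = 0.0718). Of 13 genes with regulatory upstream open reading frames 0 passed, and their median was 0.02 (-0.09 under quantile normalization and -0.03 without Ded1 replicate 2). Of 33 proteasome genes 0 passed, with a median of 0.06 (-0.08 without Dbp1 replicate 2).

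DBP1 mRNA was at 155.6 and 153.2 RPKM in 2xDbp1, against 100.4 and 104.5 RPKM in Dbp1. That log2 fold change of 0.59 did not pass (limma, adjusted p = 0.303). Genes called between Dbp1 and Ded1 were chosen on the values of the same Dbp1 and Ded1 libraries, so a smaller difference from Ded1 in 2xDbp1 is favoured by that choice. The values of called genes that follow are a description with no test. HSP12 was at 104.5 and 84.9 RPKM in 2xDbp1, against 674 and 344 RPKM in Dbp1. RTC3 was at 25.4 and 20.3 RPKM in 2xDbp1, against 41.1 and 35.1 RPKM in Dbp1. Over the 66 genes the median log2 fold change was 0.91 for Dbp1 over Ded1, 0.55 for 2xDbp1 over Ded1 and -0.40 for 2xDbp1 over Dbp1. These comparisons share libraries, so their values are only set side by side. Of all 5198 genes, 1 passed between 2xDbp1 and Dbp1 (TRP1, limma), or 0.0192%, and 404 had an unadjusted p under 0.05. The 4 lower sulfur genes had a median of -1.04 for Dbp1 over Ded1 and -0.78 for 2xDbp1 over Ded1, and the other 7 lower genes -0.64 and -0.23. MET17 was at 79.9 and 86.4 RPKM in 2xDbp1, against 76.6 and 94.7 RPKM in Dbp1, so these libraries overlapped. AQY2 was at 181 and 130.0 RPKM in 2xDbp1, against 77.3 and 66.4 RPKM in Dbp1. Between 2xDbp1 and Ded1, 4 genes passed, or 0.0770%, namely DBP1, DED1, MBB1 and TRP1.

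Genes that mark other cell states of yeast were low and did not pass. The 6 a-specific genes summed to 20.0 and 16.9 RPKM in Dbp1, against 25.7 and 16.6 RPKM in Ded1, and the 4 alpha-specific genes to 6.63 and 5.24 RPKM in Dbp1, against 5.55 and 4.81 RPKM in Ded1. The 6 haploid-specific genes summed to 27.5 and 22.3 RPKM in Dbp1, against 20.0 and 21.6 RPKM in Ded1. The 12 meiotic genes summed to 64.6 and 44.3 RPKM in Dbp1, against 60.2 and 43.8 RPKM in Ded1, where replicate 1 was the higher in both genotypes. Among these, 2 a-specific, 2 haploid-specific and 3 meiotic genes reached a mean of 5 RPKM, and none passed. The median log2 fold change by chromosome arm ran from -0.03 to 0.09.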

How the data were processed

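mRNA fragments of 50 nt were size-selected and sequenced, per the labels' protocols. The submitters' processing notes name CASAVA, bcl2fastq 2.17 and Bowtie2. Genome build, annotation and counting rules: not given in the sources used here. RPKM values were deposited by the authors in 1 column per library. That unit was inferred: multiplied by the coding length less 60 nt, low values step in whole reads (83.6% to 85.5% whole within 0.02 reads, among values under 200 reads), which gives 5.998 to 8.497 M reads per mRNA library. Of 6159 gene IDs, 5639 matched the R64 gene table, used for names, lengths and neighbours. The 6 footprint columns were left out.

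A linear model on log2(RPKM + 1) was fitted with limma 3.58.1 (R 4.3.3, trended empirical Bayes, 3 genotypes, 6 mRNA libraries, 2-sided) to the 5198 genes averaging 5 RPKM or more, with Benjamini-Hochberg adjustment over all of them. Fold changes are on this scale, which understates changes of low genes. The fit was tested on simulated data. Tables and plots used Python 3.11.15, pandas 2.3.3, numpy 2.4.6 and matplotlib 3.10.9. Alternatives were other pseudocounts, filters, scalings and priors, the replicate block, and leaving out each library.

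The naming rule took DED1 and DBP1, the 15 largest increases and decreases among called genes averaging 10 RPKM or more whose libraries did not overlap, dubious or overlapping unnamed genes aside, and for each of 57 lists up to 4 called members or else the 2 with the lowest p. Other genes named were chosen after their values were seen. The comparison, the rule and the lists were chosen with earlier results of these data known. Of 1079 list entries, 8 were unmatched. Promoter motifs and sequences were not analysed here. Results that involve a withheld gene are not reported here.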

Additional observations from a re-analysis of the deposited data

Results flagged for a closer look

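TRP1, a tryptophan synthesis gene often used as a strain marker, was at 5.70 and 6.53 RPKM in 2xDbp1, against 79.7 and 71.5 RPKM in Dbp1, a log2 fold change of -3.43, and was the 1 gene that passed between these genotypes in the limma fit over all genes. In the comparison of Dbp1 with Ded1, which had 70.4 and 83.4 RPKM, its log2 fold change was -0.02 (limma, adjusted p = 0.948). Its difference between the DBP1 copy numbers is what drew attention to it.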

How the results depend on the processing

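Of the 79 calls between Dbp1 and Ded1, 79 held with a pseudocount of 0.5, 76 with a pseudocount of 5, 52 with no filter on low values, 67 with a mean of at least 20 RPKM, 70 with libraries rescaled by their median, 54 with quantile normalization and 37 with no trend in the prior. No called gene changed sign under these settings or without any library. Counts of calls moved more. With the Dbp1 and Ded1 libraries alone, 8 genes passed, 6 higher and 2 lower, and with no trend in the prior 39 passed, 35 higher and 4 lower. Quantile normalization gave 43 higher. Leaving out each library in turn, 2 to 204 genes passed, 1 to 181 higher and 1 to 23 lower, lowest without Ded1 replicate 1 and highest without Dbp1 replicate 2. Between 2xDbp1 and Dbp1, 1 to 6 genes passed, with 6 without Dbp1 replicate 1. With 1 library left in a genotype, it is assumed to vary like the others. The cause of these moves was not tested, beyond the fewer residual degrees of freedom in fits of fewer libraries (3 in the full fit).

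The libraries of Dbp1 and Ded1 share replicate numbers, but with 2 numbers the labels do not show a pairing. Deviations of same-numbered libraries correlated at 0.17 between Dbp1 and Ded1, -0.07 between 2xDbp1 and Dbp1 and 0.20 between 2xDbp1 and Ded1. With a replicate block, 116 genes passed between Dbp1 and Ded1, 91 higher and 25 lower, and 4 passed between 2xDbp1 and Dbp1. Differences near 0 of genes that did not pass changed sign. ENO2 had a log2 fold change of 0.045, RTN1 -0.011, TIF1 -0.00637 and MSN2 -0.020 under quantile normalization, and TIF1 -0.029 after median rescaling. Leaving out each library, CBF1 ran from -0.20 to 0.054, ENO2 from -0.15 to 0.085, MET3 from -0.31 to 0.21, MSN2 from -0.044 to 0.18, RTN1 from -0.081 to 0.20, TIF1 from -0.025 to 0.042 and TRP1 from -0.14 to 0.10. Of 57 list medians, 5 had the other sign after median rescaling and 5 after quantile normalization, 9 without Ded1 replicate 1, 8 without Ded1 replicate 2, 6 without Dbp1 replicate 2 and 5 without Dbp1 replicate 1. At the inferred depth, 5 RPKM is 30 to 42.5 reads for a gene of 1 kb, and the median SE was 0.206 at 5 to 10 RPKM and 0.0993 above 300 RPKM.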
